A study of Arabidopsis thaliana with 18 samples.

Results

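PR1 (AT2G14610), PR2 (AT3G57260) and PR5 (AT1G75040) are the classic pathogenesis-related genes of Arabidopsis thaliana, and they are described here on ATH1 arrays of the natural accession Kin-0. Their 3 probe sets, 266385_at for PR1, 251625_at for PR2 and 259925_at for PR5, were chosen by identifier from a table of 22810 probe sets, without use of their values. The platform annotation used here lists none of the 3 (0 of 3), so the gene names rest on the pairing that defined the choice. The gene table gives PR2 the symbol BGL2.

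Pathogenesis-related proteins are secreted or vacuolar proteins that plants accumulate during infection. In leaves of Arabidopsis their genes are widely used as markers of signalling by salicylic acid (SA), a defence hormone: SA acts through the receptor protein NPR1, which works with TGA transcription factors at the PR1 promoter, while NIMIN proteins and the glutaredoxin GRX480 bind into the same machinery. PR1 is a member of the CAP family of small secreted proteins and is known to bind sterols, PR2 is a beta-1,3-glucanase that cleaves glucan chains of fungal cell walls and of plant callose, and PR5 is a thaumatin-like protein, a family that includes antifungal osmotins.

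SA was given at 0.30 mM together with silwet, a surfactant that spreads a solution over plant surfaces, at 0.02%. Control plants received silwet at the same strength, and RNA was taken 4, 28 and 52 h later. Each of the 6 groups held 3 biological replicates, numbered 1 to 3 in the labels, which gave 18 arrays. Every group was Kin-0, and the labels name no mutant, transgene, age or tissue. Plants without any treatment were not analysed here, and the background against which SA is read is silwet. The values are linear MAS5 signals, which combine the probe pairs of a probe set into 1 value, and each array had been scaled. A signal is compared below between arrays for 1 probe set and never between probe sets.

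Array medians ran from 26.7 to 35.6 in signal, and precision is limited by the 3 arrays of a group. All 3 probe sets were bright throughout: PR1 stood between the 97.6th and the 99.97th percentile of its array, PR5 between the 93.2nd and the 99.7th, and PR2 between the 83.6th and the 99.1st. They passed the filter on dim signals on 18 of 18 arrays, so none entered the test through 1 group alone. Ribulose bisphosphate carboxylase activase (RCA), the 1 leaf marker with a named probe set, had group means between 2587 and 3472. The root endoglucanase GH9C1, the 1 marker of other organs with a named probe set, lay below the filter level on every array. The mean log2 ratio of 3' over 5' signal of the actin and GAPDH control probe sets, a sign of RNA quality, ran from 0.14 to 0.94 on 17 arrays and was 1.51 on the SA array of replicate 2 at 4 h, and that array is named below where a call was lost without it.

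PR1 was high in silwet plants already and higher in SA plants at 4 h; in bulk RNA, a change in the RNA of each cell and a change in the share of cells that express a gene cannot be told apart. Its signals in the silwet plants at 4 h were 1109, 1605 and 2657 in replicates 1, 2 and 3, with a mean of 1791 ± 790.4 (SD, n = 3). In the SA plants at 4 h they were 3120.3, 4472 and 4417, with a mean of 4003 ± 765 (SD, n = 3). Every SA array lay above every silwet array, and SA exceeded silwet 2.81-fold, 2.79-fold and 1.66-fold in the 3 same-numbered pairs. At 28 h the silwet arrays read 3286, 2617 and 3417 (mean 3107 ± 429, SD, n = 3). After SA they read 3018, 3614 and 2854 (mean 3162 ± 399.7, SD, n = 3), and the groups overlapped. At 52 h the silwet arrays read 1139, 2454 and 2917 (mean 2170.1 ± 922, SD, n = 3). The SA arrays at 52 h read 1835, 1889.7 and 3099.6 (mean 2275 ± 715, SD, n = 3), within the range of the silwet arrays in 2 of 3 cases. The order of PR1 group means was SA at 4 h, SA at 28 h, silwet at 28 h, SA at 52 h, silwet at 52 h and silwet at 4 h. Arrays of every neighbouring pair in this order overlapped.

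PR2 ran the other way at 4 h, with its highest mean in plants that had received no SA. The silwet arrays at 4 h read 1087, 911 and 1769 (mean 1256 ± 453, SD, n = 3). The SA arrays at 4 h read 418, 355 and 1342 (mean 705 ± 553, SD, n = 3). SA was lower in all 3 pairs, at 0.385, 0.389 and 0.759 of silwet, but the groups overlapped because SA replicate 3 exceeded silwet replicates 1 and 2. At 28 h the silwet arrays read 561, 402 and 445 (mean 469.6 ± 82.3, SD, n = 3). After SA they read 604, 445 and 654 (mean 568 ± 109, SD, n = 3), each above its own-numbered silwet array, although the groups overlapped. At 52 h the silwet arrays read 490.04, 404 and 311 (mean 402 ± 89.4, SD, n = 3). The 3 SA arrays of 52 h read 327, 186 and 996 (mean 503 ± 433, SD, n = 3), spread 5.35-fold from below to above all 3 silwet arrays. The order of PR2 group means was silwet at 4 h, SA at 4 h, SA at 28 h, SA at 52 h, silwet at 28 h and silwet at 52 h, and every neighbouring pair overlapped.

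PR5 was highest in the SA plants at 4 h and lower in all groups sampled later. The silwet arrays at 4 h read 930.3, 1103 and 1695 (mean 1243 ± 401, SD, n = 3). The SA arrays at 4 h read 1414, 2064 and 2798 (mean 2092 ± 692, SD, n = 3). SA exceeded silwet 1.52-fold, 1.87-fold and 1.65-fold in the 3 pairs, the most even ratios of the 3 genes at that time, while the groups overlapped because silwet replicate 3 exceeded SA replicate 1. At 28 h the silwet arrays read 778, 736 and 945 (mean 819.7 ± 111, SD, n = 3). After SA the signals at 28 h were 746, 659 and 1098 (mean 834 ± 232, SD, n = 3), again overlapping. At 52 h the silwet arrays read 519.9, 847 and 779 (mean 715 ± 173, SD, n = 3). Their SA counterparts read 469, 449 and 1054 (mean 657 ± 344, SD, n = 3), 2 of them below every silwet array and 1 above. The order of PR5 group means was SA at 4 h, silwet at 4 h, SA at 28 h, silwet at 28 h, silwet at 52 h and SA at 52 h, with overlap between all neighbours.

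**Figure D1:**
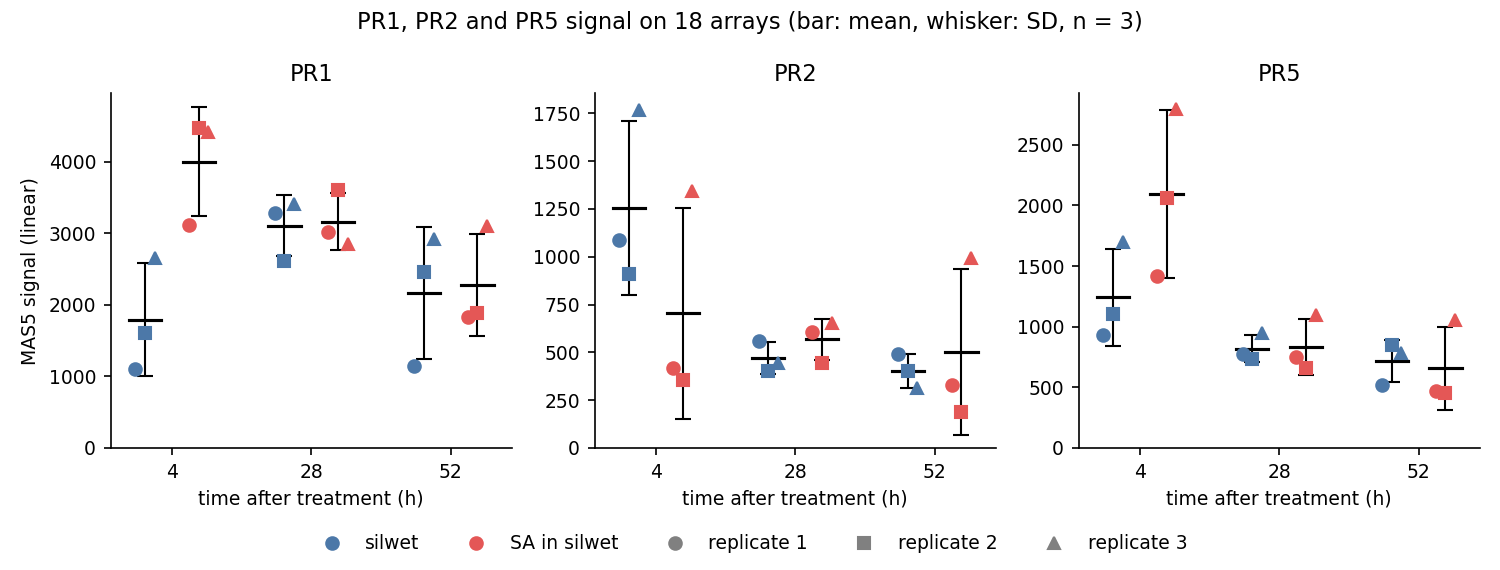
MAS5 signal (linear scale from 0) of PR1, PR2 and PR5 on each of the 18 arrays against time after treatment in hours, silwet in blue and SA in silwet in red, with 1 symbol per replicate number, a bar at the mean and a whisker of 1 SD (n = 3). At 4 h the PR1 arrays of SA plants (3120.3 to 4472) all lie above those of silwet plants (1109 to 2657), the PR2 mean is lower after SA and the PR5 mean higher, and at 28 and 52 h the colours overlap for all 3 genes.

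The first comparison asked how SA changed the 3 genes against silwet at each time, with limma fitted to log2 signals of the 15212 probe sets that passed the filter. At 4 h the log2 fold change was 1.23 for PR1 (SE 0.34, limma adjusted p = 0.104), a 2.35-fold difference of geometric means. It was 0.74 for PR5 (SE 0.34, limma adjusted p = 0.381), 1.67-fold. It was -1.05 for PR2 (SE 0.53, limma adjusted p = 0.443), 2.06-fold lower, and came to -0.69 without SA replicate 2 and to -1.65 without SA replicate 3. Thus 0 of 3 genes passed the threshold of an adjusted p of 0.05, which 0.795% of all probe sets tested passed, and the unadjusted limma p values were 0.00215, 0.0454 and 0.0649 for PR1, PR5 and PR2. The separation of the PR1 groups, with SA higher, was shared by 7.95% of all probe sets tested.

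Same-numbered arrays mostly deviated together from their group means, so the 4 h comparison was also fitted with replicate number as a block. The SA array of replicate 2 did so weakly. Across probe sets its r with the silwet array of its number at 4 h was 0.18, beside 0.71 and 0.67 for numbers 1 and 3. With the block PR1 passed (log2 fold change 1.23, SE 0.25, limma adjusted p = 0.00921) and so did PR5 (0.74, SE 0.20, limma adjusted p = 0.0381), while PR2 did not (-1.05, SE 0.40, limma adjusted p = 0.13). This fit called 6.65% of all probe sets tested. Both calls were lost without the SA array of replicate 2, the array with the highest 3' over 5' ratio. The blocked fit then gave PR1 a log2 fold change of 1.14 at a limma adjusted p of 0.0501 and PR5 one of 0.65 at a limma adjusted p of 0.151. No other single array was left out of the blocked fit, so the part of this array cannot be told from that of having fewer arrays. Without the block, leaving out 1 array gave PR1 its lowest value, 0.94, without silwet replicate 1. For PR5 it was 0.51, without SA replicate 3. With the 3' over 5' ratio as a covariate beside the block, PR1 was at 1.06 (limma adjusted p = 0.0339) and PR5 at 0.62 (limma adjusted p = 0.116). All 3 directions at 4 h were the same in every fit tried.

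At 28 h the log2 fold changes of SA against silwet were 0.03 for PR1, 0.27 for PR2 and -0.00 for PR5 (SE 0.34, 0.53 and 0.34), and 0 of 3 genes were called, against 0% of all probe sets tested. The lowest unadjusted limma p among them was 0.616, for PR2. At 52 h they were 0.13, -0.01 and -0.21 with the same SEs, again with 0 of 3 called against 0% of all probe sets tested, and the lowest unadjusted limma p was 0.549, for PR5. The 95% intervals at 28 h ran from -0.69 to 0.74 for PR1, from -0.85 to 1.39 for PR2 and from -0.73 to 0.73 for PR5. The 4 h estimate of each gene lay outside its own 28 h interval, for PR5 by a margin in the second decimal, and the difference between times was tested next. Over the 3 times together the mean SA effect was 0.46 for PR1 (SE 0.19), -0.26 for PR2 (SE 0.30) and 0.18 for PR5 (SE 0.20), all at a limma adjusted p of 0.962 (unadjusted 0.0298 for PR1), and 0% of all probe sets tested were called.

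Whether the SA effect itself differed between times was tested as an interaction. The effect at 28 h minus that at 4 h was -1.21 for PR1 (SE 0.48, limma adjusted p = 0.662), 1.32 for PR2 (SE 0.75, limma adjusted p = 0.894) and -0.74 for PR5 (SE 0.48, limma adjusted p = 0.95). The effect at 52 h minus that at 4 h was -1.10 for PR1 (SE 0.48, limma adjusted p = 0.731), 1.04 for PR2 (SE 0.75, limma adjusted p = 1) and -0.95 for PR5 (SE 0.48, limma adjusted p = 0.875). The PR2 values moved most with single arrays, from 0.96 (without SA replicate 2 of 4 h) to 1.92 (without SA replicate 3 of 4 h) for 28 h, and from 0.37 (without SA replicate 3 of 52 h) to 1.64 (without SA replicate 3 of 4 h) for 52 h. PR1 and PR5 had smaller estimates later and PR2 had larger ones, but 0 of 3 genes passed in either test, where 0.0263% of all probe sets tested did, and the unadjusted limma p of PR1 was 0.0224 at 28 h and 0.0347 at 52 h. A difference in the SA response of these genes between 4 h and later times was therefore not detectable with 3 arrays a group.

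The 3 genes were also set against each other within arrays. At 4 h the SA effect on PR1 exceeded that on PR2 by 2.28 on the log2 scale, that on PR5 exceeded that on PR2 by 1.79 (PR2 minus PR5 was -1.79), and that on PR1 exceeded that on PR5 by 0.49. In each case the 3 SA arrays did not overlap the 3 silwet arrays, and an exact two-sided permutation test gave p = 0.1 for each, the smallest p that 3 arrays against 3 allow. As 3 pairs at 3 times were tested, none can pass a correction. The 3 differences are not independent, since any 2 of them fix the other. How often other pairs of probe sets separated in this way was not counted. At 28 and 52 h all 6 such differences overlapped between treatments, with exact permutation p between 0.2 and 1.

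**Figure D2:**
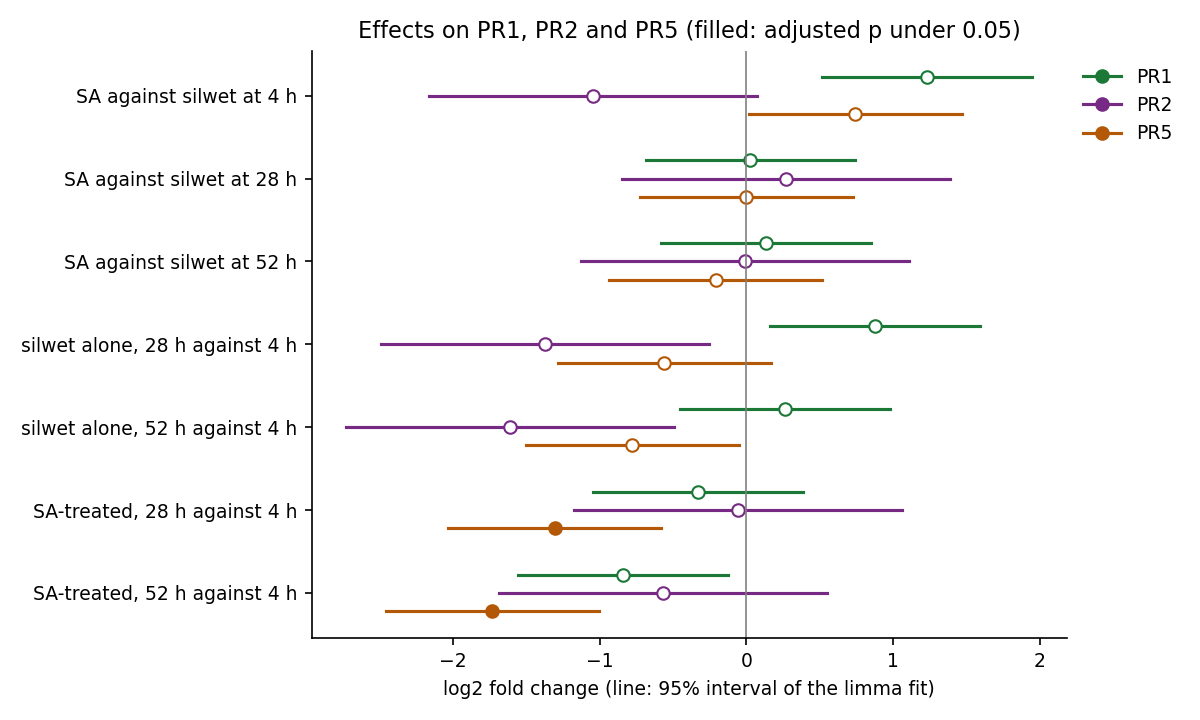
Log2 fold change of PR1, PR2 and PR5 (x axis) in 7 comparisons (rows), with the 95% interval of the limma fit to 18 arrays as a line and a filled point where the adjusted p is under 0.05. At 4 h the PR1 and PR5 estimates (1.23 and 0.74) lie above 0 and the PR2 estimate (-1.05) below, and the filled points are the falls of PR5 in SA-treated plants after 4 h.

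The next comparison followed each treatment over time, which shows how far the silwet background itself moved. In silwet plants the PR2 mean was 1256 at 4 h, 469.6 at 28 h and 402 at 52 h, and neither later group overlapped the first. Its log2 fold change was -1.37 at 28 h (SE 0.53, limma adjusted p = 0.384) and -1.61 at 52 h (SE 0.53, limma adjusted p = 0.154), which did not pass. Fitted to the arrays of these groups alone, the 52 h value passed (limma adjusted p = 0.0281), and so it did with array weights (-1.32, limma adjusted p = 0.00624). PR5 had a log2 fold change of -0.56 at 28 h (SE 0.34, limma adjusted p = 0.745) and of -0.78 at 52 h (SE 0.34, limma adjusted p = 0.363), with no overlap at 52 h. PR1 moved the other way, with 0.88 at 28 h (SE 0.34, limma adjusted p = 0.384) and 0.26 at 52 h (SE 0.34, limma adjusted p = 0.864). In silwet plants 0 of 3 genes were called at 28 h against 4 h, where 0.605% of all probe sets tested were, and 0 of 3 at 52 h against 4 h, where 2.34% were. With replicate number as a block PR2 and PR5 did pass at 52 h, in a fit that called 1148 of 15212 probe sets. The arrays of number 2 in these groups correlated at only 0.07, so the block is less sure there. Unadjusted limma p values were 0.0193 for PR1 and 0.0192 for PR2 at 28 h, and 0.00768 for PR2 and 0.0369 for PR5 at 52 h. Groups that did not overlap, with the later one lower, were found for 7.35% of probe sets tested at 28 h and for 11.8% at 52 h.

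In SA-treated plants PR5 fell after 4 h, the 1 gene of the 3 called in the unweighted fit to all 18 arrays without the block. From a mean of 2092 at 4 h it came to 834 at 28 h (log2 fold change -1.31, SE 0.34, limma adjusted p = 0.0206) and to 657 at 52 h (-1.73, SE 0.34, limma adjusted p = 0.00275), and neither later group overlapped the first. Of all probe sets tested, 11.6% were called at 28 h (6.24% as lower than at 4 h) and 16% at 52 h (8.66% as lower), so 1 call among 3 genes stands against a common change. PR1 changed by -0.33 at 28 h (SE 0.34, limma adjusted p = 0.63) and by -0.84 at 52 h (SE 0.34, limma adjusted p = 0.108), when every SA array lay below every SA array of 4 h. A later group below the first without overlap was found for 13% of probe sets tested at 28 h and for 13.6% at 52 h. The log2 fold change of PR2 was -0.06 at 28 h (SE 0.53, limma adjusted p = 0.968) and -0.57 at 52 h (SE 0.53, limma adjusted p = 0.536).

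With the replicate block PR1 in SA-treated plants passed at 52 h against 4 h (log2 fold change -0.84, SE 0.25, limma adjusted p = 0.0166), in a fit that called 30.7% of all probe sets tested. Without the SA array of replicate 2 at 4 h the blocked value was -0.75 at a limma adjusted p of 0.0723. The fall of PR5 at 28 h lost its call without SA replicate 2 or 3 of 4 h or SA replicate 1 or 2 of 28 h (limma adjusted p = 0.0635, 0.103, 0.0605 and 0.0992), with log2 fold changes from -1.56 to -1.07 over the 6 fits that left out 1 array. The fall at 52 h passed in all 6 such fits (limma adjusted p between 0.000683 and 0.0205), and it missed the threshold without all arrays of number 2 (-1.50, limma adjusted p = 0.184). Between 28 h and 52 h, 0 of 3 genes were called in either treatment, against 0% of all probe sets tested, and the lowest unadjusted limma p was 0.0864, for PR1 in silwet plants. The log2 fold changes there ran from -0.62 to -0.22 in silwet plants and from -0.51 to -0.43 in SA plants.

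The named relatives of the 3 genes give the families around them, with family membership taken from general knowledge. Of 22 other thaumatin-like genes 19 could be named on the array and 12 passed the filter. In SA-treated plants at 52 h against 4 h 4 of the 12 rose and 0 fell, with a median log2 fold change of 1.23 beside 0.10 over all probe sets tested, and at 28 h 2 rose and 0 fell. Of all probe sets tested 7.36% rose at 52 h and 5.39% at 28 h. With the replicate block 7 of the 12 rose at 52 h, as did 16.6% of all probe sets tested. In silwet plants at 52 h 0 of the 12 were called. Only 26 of all 15212 probe sets tested rose there, so 12 genes would be likely to hold no rise whatever they were. Of the 12 estimates in silwet plants 10 were above 0, with a median of 0.66 beside 0.06 over all probe sets tested. AT1G20030 rose from a mean signal of 76.8 ± 51.1 at 4 h to 489 ± 264 at 52 h (SD, n = 3, log2 fold change 2.75, SE 0.48, limma adjusted p = 0.00124). AT1G75800 rose from 163 ± 56.6 to 560.4 ± 238 (SD, n = 3, 1.72, SE 0.41, limma adjusted p = 0.00861). AT2G28790 rose from 184 ± 50.9 to 439 ± 18.0 (SD, n = 3, 1.29, SE 0.36, limma adjusted p = 0.0235). Its adjusted p was 0.0532 without SA replicate 2 of 4 h, by limma. AT4G38670 did not reach the filter level on any of the 3 SA arrays of 4 h and was at least 2.21-fold higher at 52 h (limma adjusted p = 0.00172). In the same plants and over the same hours PR5 fell by 1.73 on the log2 scale.

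**Figure D3:**
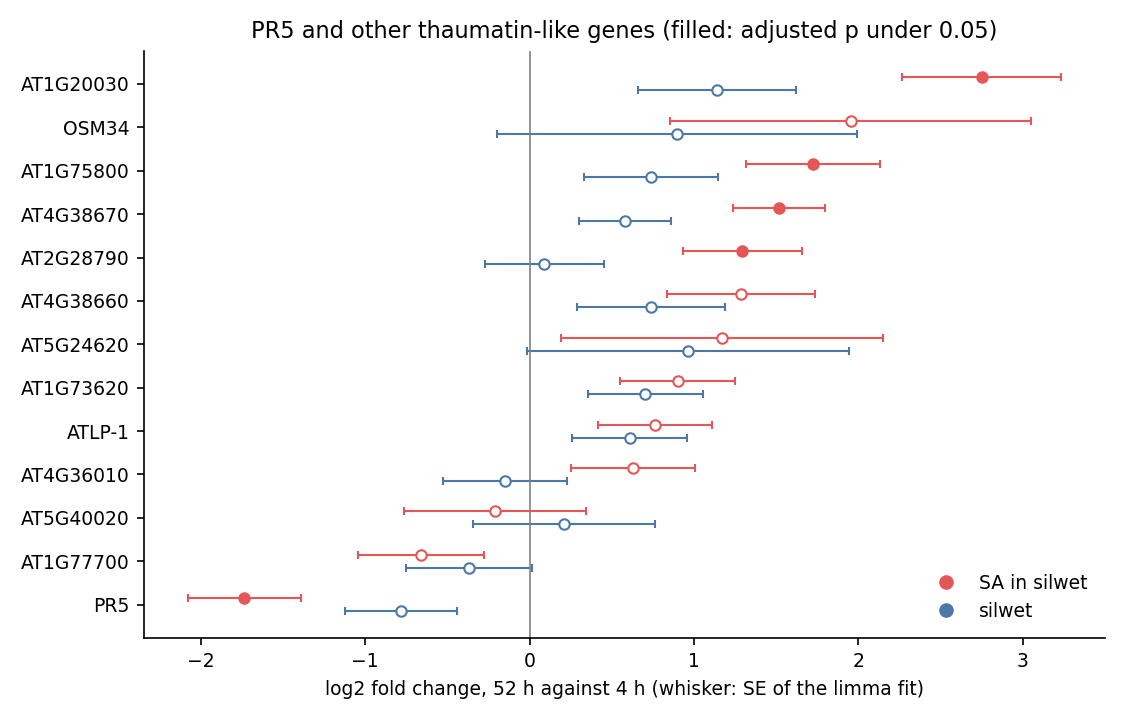
Log2 fold change at 52 h against 4 h (x axis, whisker 1 SE of the limma fit) of PR5 and of 12 other thaumatin-like genes (rows), in SA-treated plants in red and silwet plants in blue, filled where the adjusted p is under 0.05. PR5 lies at -1.73 in SA-treated plants, and 10 of the 12 others lie above 0, 4 of them filled; the value of AT4G38670 is fitted to signals below the filter level at 4 h.

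At 4 h after SA the same 12 thaumatin-like genes had a median log2 fold change of -0.73 against silwet, with 9 of 12 below 0, while PR5 stood at 0.74. None of the 12 was called (0), against 0.795% of all probe sets tested. The median of all probe sets tested was -0.09 and came to 0.02 when arrays were centred on their medians. AT1G75050, the neighbour of PR5 in the gene table, was below the filter level on 18 of 18 arrays. Among 20 other CAP genes, the family of PR1, 18 had a named probe set and 3 passed the filter, so 15 were dim in these plants. AT5G66590, 1 of those 3, rose in SA-treated plants after 4 h, by 28 h (log2 fold change 1.34, SE 0.31, limma adjusted p = 0.0108) and by 52 h (1.38, SE 0.31, limma adjusted p = 0.00673), while PR1 was at -0.33 and -0.84. The other CAP genes tested were not called in these comparisons. Of all probe sets tested 5.39% rose at 28 h and 7.36% at 52 h. Among 7 other beta-1,3-glucanases, the family of PR2, 3 could be named on the array and all 3 passed the filter. AT2G27500 fell in silwet plants at 52 h against 4 h (-1.31, SE 0.32, limma adjusted p = 0.0434, and 0.0543 with median centring), where PR2 was at -1.61. In that comparison 2.34% of all probe sets tested were called. The other glucanases tested, AT4G16260 and AT3G55430, were at -0.13 and 0.004 there and were not called. No glucanase or CAP gene of these lists was called for SA against silwet at 4 h (0 of 6). As 0.795% of all probe sets tested were called there, lists this short would be likely to hold no call whatever their genes. The other classes of pathogenesis-related proteins, chitinases, defensins, thionins and lipid transfer proteins, had 3 of 14 genes tested and 0 called at 4 h, against the same 0.795%. PDF1.2, a plant defensin known as a marker of jasmonate signalling, was at -0.15 (SE 1.01, limma adjusted p = 0.973).

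Genes that act on SA and on PR gene transcription were thinly named on the array. Of 26 genes for SA perception and PR gene transcription 4 had a named probe set, and NPR1 was not among them. At 4 h 0 of these 4 were called, against 0.795% of all probe sets tested, and all 4 estimates were above 0 (median 1.06). GRX480, the glutaredoxin that binds TGA factors, had a mean signal of 266 ± 124 in silwet plants and 681 ± 154 in SA plants (SD, n = 3, log2 fold change 1.43, limma adjusted p = 0.0997). WRKY53, a transcription factor of leaf senescence and defence, had 293 ± 211 and 815 ± 54.0 (SD, n = 3, 1.70, limma adjusted p = 0.163). In SA-treated plants 3 of the 4 were called lower at 52 h than at 4 h, as were 8.66% of all probe sets tested. GRX480 fell by 3.13 and WRKY53 by 4.24 on the log2 scale (limma adjusted p = 8.82e-05 and 0.000102), beside the 1.73 of PR5. AT4G26120, below the filter level on every SA array of 52 h, was at least 1.57-fold lower (limma adjusted p = 0.0436). WRKY6 was not called (-1.25, limma adjusted p = 0.202). In silwet plants over the same hours GRX480 fell by 1.79 and WRKY53 by 2.42 (limma adjusted p = 0.0216 and 0.0253), where 2.34% of all probe sets tested were called. AT4G26120 was at 0.01 there (limma adjusted p = 0.997). Of 17 genes for SA synthesis and turnover 4 were tested and 2 rose at 4 h, when 0.473% of all probe sets tested rose: UGT76B1, a glycosyltransferase acting on SA and related compounds (3.46, limma adjusted p = 0.0461), and AT5G52810 (1.52, limma adjusted p = 0.0174). Without SA replicate 2 of 4 h UGT76B1 was at 3.33 (limma adjusted p = 0.152) and AT5G52810 at 1.51 (limma adjusted p = 0.0823), close to their values with it. Values of these genes without other single arrays are not given here. Calls over all probe sets for SA against silwet at 4 h fell from 121 to 25 without that array. They fell to 17 or 15 without silwet replicate 1 or 2, and to 20 without SA replicate 3. They were 98 without silwet replicate 3 and 142 without SA replicate 1. Of 14 chaperones of the secretory pathway, through which PR proteins leave the cell, 3 were tested and ATERDJ3B rose at 4 h (1.20, limma adjusted p = 0.00799), while the other two were not called. UGT76B1, AT5G52810 and ATERDJ3B were each lower in SA-treated plants at 28 h and at 52 h than at 4 h, past the threshold in all 6 tests. Of all probe sets tested, 6.24% were called lower at 28 h and 8.66% at 52 h. These 3 genes are named for being high on the SA arrays of 4 h, and the 6 tests use the same arrays, so they are no separate support. In silwet plants at 52 h, too, UGT76B1 fell (fitted log2 fold change -3.86, limma adjusted p = 0.0125). Its mean signal there was 15.3 ± 12.5 (SD, n = 3), above the filter level on 1 of 3 arrays, so the size of that fall is uncertain. In the same plants ATERDJ3B fell by 0.77 (limma adjusted p = 0.0397, and 0.0755 with median centring), and AT5G52810 was at -0.76 (limma adjusted p = 0.222).

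Among themselves the 3 genes varied in different ways over the 18 arrays. PR2 had the widest range, 9.50-fold from 186 to 1769, PR5 spanned 6.23-fold and PR1 4.03-fold. Log2 signals of PR2 and PR5 had a Pearson r of 0.60 (Spearman rho 0.52), those of PR1 and PR5 0.54 (0.42), and those of PR1 and PR2 -0.01 (0.01), as a description over arrays that share treatment, time and scaling. Taken as deviations from group means, the r was 0.71 for PR2 and PR5, 0.74 for PR1 and PR5 and 0.31 for PR1 and PR2. The deviation of PR5 had the sign of that of PR1 on 15 of 18 arrays and the sign of that of PR2 on 12 of 18, and PR1 and PR2 shared theirs on 11. Without the 2 arrays farthest from the median of the first gene named, the r of log2 signals was 0.36 for PR2 and PR5, 0.59 for PR1 and PR5 and 0.20 for PR1 and PR2.

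That common variation followed the replicate numbers. PR5 on replicate 3 arrays lay above its group mean in 6 of 6 groups (by 0.15 to 0.80 on the log2 scale) and on replicate 1 arrays below it in 6 of 6. PR1 on replicate 3 lay above in 5 of 6 groups and on replicate 1 below in 5 of 6. PR2 on replicate 3 was above in 4 of 6 groups, by 1.20 and 1.34 in the SA groups at 4 and 52 h, and on replicate 2 it was below in 5 of 6. What arrays of 1 number shared is not stated in the labels, and its part in the differences between groups was not tested beyond the fits with replicate number as a block.

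**Figure D4:**
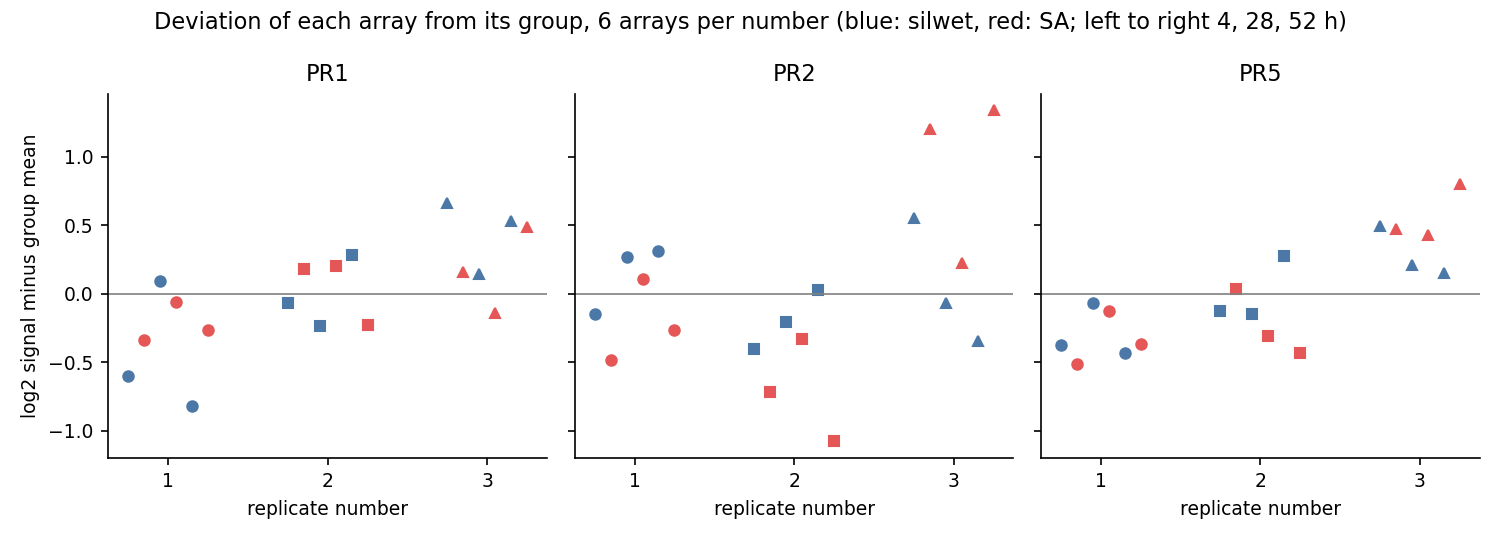
Deviation of each array from its group mean in log2 signal (y axis) by replicate number (x axis) for PR1, PR2 and PR5, silwet in blue and SA in red, with 4, 28 and 52 h from left to right within a number. All 6 PR5 arrays of replicate 3 lie above 0 and all 6 of replicate 1 below, and the widest deviations are those of PR2 in SA plants of replicate 3, up to 1.34.

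The genes most like each of the 3 were taken as the 5 named probe sets with the highest Pearson r of log2 signal over 18 arrays, among 8305 tested. For PR5 these were AT5G18470 (r = 0.97), AT4G18250, AT1G26420, AT5G62620 and AT5G67340 (r = 0.94 for each), when 99% of named probe sets had an r below 0.88 with PR5. AT5G18470 had mean signals of 635 and 1044 in silwet and SA plants at 4 h, 349 and 368 at 28 h, and 259.8 and 254 at 52 h, the same order of treatments at each time as PR5. For PR2 they were AT2G39420 (0.89), AT5G13810 (0.84), the glucosinolate transporter gene GTR2 (0.81), AT3G19970 (0.80) and AT5G42050 (0.80), and the 99th percentile was 0.64. AT2G39420 had 146 and 77.3 at 4 h, 45.0 and 50.7 at 28 h, and 33.8 and 53.6 at 52 h, lower after SA at 4 h and higher at 28 h as PR2 was. AT5G18470 and AT2G39420 were picked by r over these same arrays, which favours a shared order of means, so that order is no separate support. For PR1 they were AT5G09290 (0.81), AT4G33540 (0.79), AT1G09740 (0.78), AT2G44010 (0.77) and AT3G26440 (0.76), with a 99th percentile of 0.55, and 2 unnamed probe sets had a higher r than the first of these. None of these 15 genes was called for SA against silwet at 4 h (limma adjusted p between 0.186 and 0.895). As 0.795% of all probe sets tested were called there, any 15 genes would be likely to hold no call. By Spearman rho AT4G33540 stood first for PR1 and GTR2 first for PR2, and by deviations from group means the same genes ranked between 2 and 116.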

How the data were processed

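Expression was measured on 18 ATH1 arrays, 3 in each of 6 groups assigned by the labels' treatment and time. The authors deposited linear intensity values, made with MAS5 per the submitters' processing notes; its version and target setting are not given in the sources used here. Trimmed means (2%) of 100.009 to 100.011 on all arrays show that each had been scaled. From these values log2 was taken without an offset, a probe set was kept if 3 or more arrays had it above their own 40th percentile, and 15212 of 22746 remained after 64 control probe sets were left out. Scaling to a common level sets values relative to the rest of the array, and MAS5 leaves dim probe sets noisy.

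For 12 comparisons, limma 3.58.1 (R 4.3.3; lmFit, eBayes with an intensity trend) estimated 6 group means from 18 arrays, and Benjamini-Hochberg adjustment ran over all probe sets of a comparison. Limma p values of the reported fit rest on the spread between biological replicates, 3 in each group. That spread is pooled over all 6 groups and drawn towards the intensity trend. For a gene dim on every array of a group the fold is a lower bound against the filter level of each array. Tests ran in Python 3.11.15 with scipy 1.17.1, and limma was tested on simulated data.

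Pairing was checked across probe sets: deviations from the group mean correlated between arrays of 1 number at r of 0.18 to 0.71 for SA and silwet at 4 h, 0.61 to 0.82 at 28 h and 0.20 to 0.36 at 52 h, and above 0.1 for 41 of 45 pairs. Silwet at 52 h with 4 h and SA at 28 h with 4 h held 1 pair each at or below 0.1. The latter held the SA array of replicate 2 at 4 h, which was also at 0.03 with silwet at 28 h and 0.098 with silwet at 52 h. The blocked value is printed where it changed a call in a paired comparison.

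Names came from a platform annotation of 14016 probe sets, 13513 with 1 gene, of which 13436 matched the TAIR10.1 gene table. The genes named are the 3 members, the 5 most alike to each, and genes of 10 lists with 1 annotated gene, those called and otherwise up to 4 by signal. Called list genes not described above were 2, both in SA-treated plants. SAG29, the 1 leaf senescence gene tested, was higher at 28 h than at 4 h (2.85, limma adjusted p = 0.0282). SAG101, of the SA synthesis list, was lower at 52 h than at 4 h (-0.99, limma adjusted p = 0.0235). AT1G75050 was named after its values were seen. The members, lists and tests were chosen with earlier results of these data known. No sequences or coordinates were used here.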

Additional observations from a re-analysis of the deposited data

Results flagged for a closer look

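PR2 is listed because its 3 same-numbered pairs moved one way at 4 h and the other way at 28 h: SA was lower than silwet in 3 of 3 pairs at 4 h and higher in 3 of 3 pairs at 28 h. How many of all probe sets tested did the same was not counted, so this pattern alone is no evidence of a change. The SA effect at 28 h minus that at 4 h was 1.32 on the log2 scale (SE 0.75). The interaction test did not pass, with a limma adjusted p of 0.894 and of 0.322 with the replicate block. At 28 h the ratios of SA to silwet were 1.08, 1.11 and 1.47, and the groups overlapped at both times.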

How the results depend on the processing

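Over 36 results (3 genes in 12 comparisons) and 828 refits, 771 kept direction and side of the threshold, 33 reversed, 18 came past it and 6 lost it, and none of the reversals (0) touched a result called in the reported fit. Array weights, whose iteration stopped before convergence, gave PR1 1.38 and PR5 0.90 at 4 h, PR1 0.82 and PR2 -1.17 in silwet at 28 h against 4 h, PR2 -1.32 in silwet at 52 h against 4 h, and PR1 -0.96 in SA plants at 52 h against 4 h, all past the threshold. The replicate block left every estimate as it was and brought PR1 (1.23) and PR5 (0.74) at 4 h, PR1 (-0.84) in SA plants at 52 h against 4 h and, where the numbers did not meet the pairing rule, PR2 (-1.61) and PR5 (-0.78) in silwet at 52 h against 4 h past it (limma adjusted p = 0.0217 and 0.0252), and changed no other call. With the block, and either SA 4 h replicate 2 left out or the 3' over 5' ratio added, PR2 (-1.61 and -1.65) and PR5 (-0.78 and -0.73) in silwet at 52 h stayed past it, as did PR1 at 4 h with block and ratio (1.06); both were chosen after seeing the data. With only the arrays compared, PR2 in silwet at 52 h against 4 h was -1.61 and past it. Without all arrays of number 2, PR5 in SA plants came to -1.14 at 28 h and -1.50 at 52 h against 4 h and missed it; without those of number 1, PR1 in SA plants at 52 h against 4 h was -0.88 and past it. Reversals were of small estimates for SA against silwet: at 28 h PR1 to -0.19 (without number 2) and PR5 to 0.0051 (quantile), 0.028 and 0.079 (without number 1 or 2) and 0.020 (block and ratio); at 52 h PR1 to -0.065 (array weights) and -0.14 (without number 1), PR2 to 0.067 (median centring), 0.024 (ratio), 0.28 and 0.55 (without number 1 or 2) and 0.0051 (block and ratio), and PR5 to 0.14 (without number 2); and PR2 in SA plants at 28 h against 4 h to 0.057 (array weights) and 0.43 (without number 3). Leaving out 1 array, the ranges that crossed 0 were, for SA against silwet, -0.091 to 0.10 (PR1) and -0.22 to 0.15 (PR5) at 28 h, and -0.28 to 0.40 (PR1), -0.68 to 0.53 (PR2) and -0.61 to 0.0062 (PR5) at 52 h; -0.037 to 0.67 for PR1 in silwet at 52 h against 4 h; and for PR2 in SA plants -0.42 to 0.54 (28 h against 4 h), -1.18 to 0.025 (52 h against 28 h) and -1.24 to 0.029 (52 h against 4 h). PR5 in SA plants ranged from -1.56 to -1.07 at 28 h and from -2.13 to -1.50 at 52 h against 4 h. The causes were not tested. Calls over all probe sets at 4 h ranged from 0 (without number 2) through 121 and 1011 (block) to 3034 (array weights); in silwet from 1 to 2333 at 28 h (reported 92) and from 19 to 3604 at 52 h (356), and in SA plants from 22 to 4603 at 28 h (1769) and from 191 to 4670 at 52 h (2437), all against 4 h. Thaumatin-like genes that rose in SA plants at 52 h against 4 h numbered 3 to 7 over 8 settings, and 0 fell. Every member was above the filter level on each array. The SE at 4 h fell with the replicate block from 0.34 to 0.25 for PR1 and from 0.34 to 0.20 for PR5.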
